A study of Rattus norvegicus with 18 samples.

Results

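The genes of MHC class II antigen presentation were followed in the renal cortex of ZDF rats, the Zucker diabetic fatty strain. The set was 8 genes of the 18420 in the deposited table. They were listed by symbol without a cutoff on any measured value, but with earlier results of these data known. Members were the transcriptional regulator Ciita, the invariant chain Cd74, the chain genes RT1-Ba, RT1-Bb, RT1-Da and RT1-Db1, and the peptide exchange genes RT1-DMa and RT1-DMb. All 8 had a row. Poly(A) RNA-seq of flash-frozen cortex was available from 18 libraries in 3 groups of 6: fa/fa rats labelled diabetic after Roux-en-Y gastric bypass (RYGB), in which a small gastric pouch is joined to a loop of the small intestine, fa/fa rats labelled diabetic as disease controls, and fa/+ rats labelled non-diabetic as lean healthy controls. The fa allele impairs the leptin receptor, and the labels give all rats as ZDF, so the healthy controls carry a single copy of it. The labels give neither age, sex, time after surgery nor a sham operation, and they do not state that each library came from its own rat, so the p-values below measure the spread between libraries.

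Class II molecules are pairs of an alpha and a beta chain that carry peptides from engulfed proteins to the surface of antigen-presenting cells, where CD4 T cells read them. In the rat the pairs are RT1-B, the counterpart of human HLA-DQ, and RT1-D, the counterpart of HLA-DR. The invariant chain guards their groove until they reach the endosome, and the DM pair then helps to exchange its last fragment for a peptide. Ciita does not bind DNA itself but joins the RFX, CREB and NF-Y factors bound at the X and Y boxes of class II promoters, and interferon gamma is its classical inducer. In kidney, class II is best known on the dendritic cells and macrophages between the tubules, and tubule cells can acquire it in inflammation.

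The boxes on which this control acts were looked for in the RefSeq promoter windows of the GRCr8 rat assembly, which run from 250 bases before to 50 bases after each gene start, on both strands. Of the 8 genes, 6 had a window, and Ciita and RT1-DMb are named only. The stretch of each window that holds the matched letters is shown 5′ to 3′ on the gene's strand with the matches in capitals. The choice of these genes did not use their promoter sequence.
Cd74: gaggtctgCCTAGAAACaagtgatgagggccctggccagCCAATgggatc
RT1-Ba: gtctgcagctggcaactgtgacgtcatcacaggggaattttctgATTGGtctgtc
RT1-Bb: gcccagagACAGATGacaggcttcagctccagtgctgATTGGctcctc
RT1-Da: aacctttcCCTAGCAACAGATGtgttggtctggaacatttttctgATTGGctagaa
RT1-Db1: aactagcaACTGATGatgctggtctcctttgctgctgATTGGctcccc
RT1-DMa: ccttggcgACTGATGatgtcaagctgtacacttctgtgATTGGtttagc
The stretches lie at chr18:56526978-56527027 on the plus strand for Cd74, chr20:4576970-4577024 on the plus strand for RT1-Ba, chr20:4604169-4604216 on the minus strand for RT1-Bb, chr20:4515321-4515376 on the plus strand for RT1-Da, chr20:4560232-4560279 on the minus strand for RT1-Db1 and chr20:4712389-4712437 on the minus strand for RT1-DMa.

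The Y box core ATTGG, the letters that NF-Y recognises, stood in all 6 windows, but also in 37.5% of the 33469 rat windows. In the Cd74 window it was on the opposite strand and reads CCAAT. The X box core CCTAGNNAC was found in the Cd74 and RT1-Da windows, against 4.34% of all windows. A shorter set of X box letters, ACNGATG, was picked after these sequences had been seen. It stood in the windows of RT1-Bb, RT1-Da, RT1-Db1 and RT1-DMa and in 10.2% of all windows, and it overlaps CCTAGNNAC in RT1-Da. In these 4 windows ATTGG followed ACNGATG on the same strand, starting 20 to 45 bases after it, an arrangement held by 0.209% of all windows. CCTAGNNAC followed by ATTGG at the same spacing occurred in RT1-Da and in 0.176% of all windows. These matches describe letters and not bound sites, and no binding was measured.

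The libraries held 12470525 to 42713246 reads in genes after RYGB, 8157977 to 37142922 in disease and 8116638 to 34169198 in healthy controls. Values are the authors' reads per gene divided by a size factor for each library, called normalised reads here. They are not scaled by transcript length, so levels are compared between groups and not between genes. Reads outside annotated genes made up 27.6% to 33.7% of counted reads after RYGB, 30.0% to 39.7% in disease and 31.2% to 43.2% in healthy controls. Markers of cortex were high throughout, and the lowest library value was 40156 normalised reads for Slc34a1, the phosphate transporter of the proximal tubule. The library labelled healthy control replicate 4 lay close to the fa/fa libraries on 126 genes, on which the remaining 5 libraries of its group did not overlap the 12 from fa/fa rats. Over these genes it lay, in the median, 0.942 of the way from their mean towards the fa/fa mean. The same position was not worked out for other healthy control libraries, so how unusual it is was not tested. Calls that change without healthy control replicate 4 are given beside the result.

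Class II transcripts were highest after RYGB, intermediate in disease and lowest in healthy controls in the group means of all 6 genes that could be tested. Against healthy controls, RYGB kidneys had 1.91 times the Ciita level and 1.38 times the RT1-Db1 level, and both genes rose (limma, adjusted p below 0.05 over 13988 genes). That is 2 of 6 members called higher, where 2.46% of all tested genes were called higher and 1.98% lower (4.44% in either direction). The disease group lay between and was not separated from either neighbour. In disease against healthy controls 0 of 6 members were called, beside 0.579% of all tested genes called higher and 1.03% lower (1.61% in either direction), and in RYGB against disease 0 of 6 were called, beside 1.84% higher and 2.1% lower (3.95%). In whole cortex, more cells that carry these transcripts and more RNA per cell cannot be told apart.

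Ciita, the coactivator that sets class II transcription, had 144.3, 198.2 and 227 normalised reads at its lowest, median and highest after RYGB, 112.1, 146.3 and 167.7 in disease, and 66.2, 111.2 and 124.5 in healthy controls. All 6 RYGB libraries stood above all 6 healthy control libraries. RYGB and disease overlapped through RYGB replicate 3, the lowest of its group, while the other 5 RYGB libraries were above every disease library. Means were 194.9 ± 30.4 after RYGB, 145.1 ± 20.5 in disease and 101.9 ± 24.8 in healthy controls (SD, n = 6 each). On the log2(value + 1) scale Ciita was higher by 0.95 ± 0.17 (SE) after RYGB than in healthy controls (limma, adjusted p = 0.00366). The steps between neighbours were 0.42 ± 0.17 for RYGB against disease and 0.53 ± 0.17 for disease against healthy controls, both with a limma adjusted p of 0.166. These values rest on few reads: 126 to 459 per library after RYGB, 45 to 315 in disease and 27 to 187 in healthy controls, with the fewest in healthy control replicate 4. Without that library the difference of RYGB from healthy controls was 0.84 (adjusted p = 0.00248).

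Cd74, which encodes the invariant chain, had 14835, 18336 and 22849 normalised reads at its lowest, median and highest after RYGB, 11970, 16979 and 24613 in disease, and 9862, 14530 and 19401 in healthy controls. The 3 ranges overlapped widely. Disease held both the highest library of all, replicate 4, and one of the lower ones, replicate 5. The log2 difference was 0.37 ± 0.17 for RYGB against healthy controls (limma, adjusted p = 0.182), 0.09 ± 0.17 for RYGB against disease (adjusted p = 0.803) and 0.28 ± 0.17 for disease against healthy controls (adjusted p = 0.6). None of these passed the test. The sign of the RYGB to disease difference turned without disease replicate 5, to -0.014.

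RT1-Ba, the alpha chain of RT1-B, had 2832, 3518 and 4369 normalised reads (lowest, median, highest) after RYGB, 2436, 3137 and 4554 in disease, and 1943, 2785 and 3156 in healthy controls. Its groups overlapped, and its difference between RYGB and healthy controls was 0.38 ± 0.15 on the log2 scale (limma, adjusted p = 0.118). RT1-Bb, the beta chain of the same pair, had 3353, 4391 and 5883 after RYGB, 2894, 3140 and 5079 in disease, and 2031, 3188 and 3284 in healthy controls. Every RYGB library was above every healthy control library for RT1-Bb, yet the difference of 0.57 ± 0.17 missed the threshold (adjusted p = 0.0566) and passed it without the library labelled healthy control replicate 4 (0.59, adjusted p = 0.0441), as it did without RYGB replicate 3 or disease replicate 3, 4 or 6 (0.0289 to 0.0495). Its disease libraries lay apart from each other, with 5079 and 4944 in replicates 3 and 4 and 2894 to 3146 in the other 4, so that the disease median was below that of healthy controls. Disease replicates 3 and 4 also had the lowest shares of reads outside genes of their group, 30.6% and 30.0%. The ratio of RT1-Ba to RT1-Bb within a library had a median of 0.743 after RYGB (range 0.714 to 0.955), 0.911 in disease (0.739 to 1.11) and 0.957 in healthy controls (0.780 to 0.967).

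RT1-Da, the alpha chain of RT1-D, had 3522, 4301 and 5237 normalised reads (lowest, median, highest) after RYGB, 2929, 4150 and 4681 in disease, and 2909, 3312 and 3885 in healthy controls. A single RYGB library, replicate 4, lay inside the healthy control range. The difference was 0.37 ± 0.12 and did not pass the test (limma, adjusted p = 0.0728), though it did without disease replicate 5 (0.0465). RT1-Db1, the beta chain, had 3981, 4509 and 5757 after RYGB, 3359, 3987 and 4942 in disease, and 2669, 3365 and 3792 in healthy controls. The RYGB and healthy control libraries of RT1-Db1 did not overlap, and it rose by 0.46 ± 0.12 on the log2 scale (adjusted p = 0.0375). This call is narrow: the adjusted p passed 0.05 when any of RYGB replicates 1, 2, 5 or 6 or healthy control replicates 1, 2, 3, 5 or 6 was left out (0.0530 to 0.103), and it was 0.0180 without healthy control replicate 4. RT1-Db1 has a close paralogue in the table, RT1-Db2, at 5.5 ± 2.0 after RYGB, 5.0 ± 5.5 in disease and 5.2 ± 2.1 in healthy controls (SD, n = 6 each), and reads shared by the pair would be lost or split in counting.

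RT1-DMa and RT1-DMb, the chains of the peptide exchange factor, were close to 0 throughout. RT1-DMa had 11 reads over all 18 libraries, at most 3 in any library and 0 in 10 of them. RT1-DMb had 24 reads, at most 4 in a library and 0 in 5. Neither reached the minimum of 10 normalised reads in 6 libraries that a gene needed to be tested, while the other members reached it in all 18. At this depth no difference between groups was detectable for the DM pair, and whether its counts are low because the transcripts are scarce or because reads at these genes were not counted under the annotation used cannot be told apart.

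**Figure D1:**
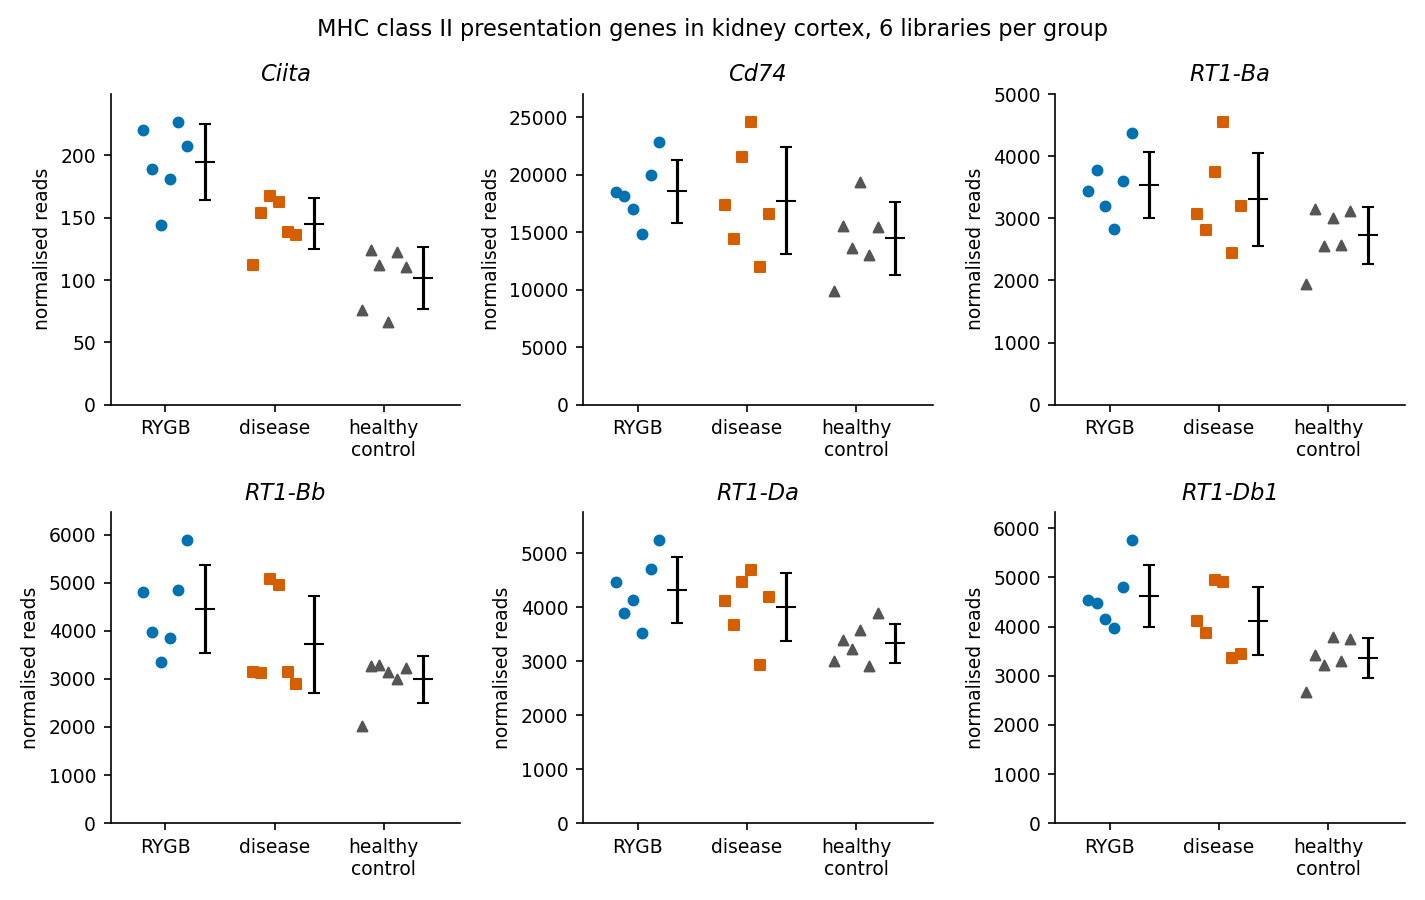
Normalised reads (y axis, linear from 0) of the 6 tested class II genes in each of the 18 libraries, with the 6 RYGB, 6 disease and 6 healthy control libraries from left to right; bars give the mean and SD. Ciita, RT1-Bb and RT1-Db1 are the panels in which no RYGB library reaches down to a healthy control library, whereas the Cd74 panel shows 3 overlapping groups.

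Taking the comparisons across the set, RYGB against healthy controls had 2 of 6 members called, all 6 with an unadjusted p below 0.05 (14.4% of all tested genes were higher at that level) and 3 of 6, Ciita, RT1-Bb and RT1-Db1, higher without overlap, where 1.82% of all tested genes were higher without overlap. The median log2 difference of the 6 members was 0.42, against -0.013 over all tested genes. Other count-based tools, run on whole reads recovered from the values, called 3 members (edgeR) and 4 members (DESeq2, adding RT1-Bb and RT1-Da to Ciita and RT1-Db1). Ciita stayed past the threshold under all 28 alternatives, with log2 differences of 0.78 to 1.04.

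For RYGB against disease, limma, edgeR and DESeq2 each called 0 of 6 members, and 1 member, Ciita, had an unadjusted p below 0.05 (0.0226), a level at which 11.2% of all tested genes were higher. The members' median log2 difference was 0.15, against -0.0009 over all tested genes. For disease against healthy controls, limma, edgeR and DESeq2 again called 0 of 6, and 3 members had an unadjusted p below 0.05: Ciita (0.00523), RT1-Db1 (0.0301) and RT1-Da (0.0449), where 5.19% of all tested genes were higher at that level. The median was 0.28, against 0.0016. All 6 differences were positive in each comparison, but the comparisons share groups and the members vary together, so they are not 6 or 18 separate observations. Missing the threshold does not show that disease matched either neighbour.

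**Figure D2:**
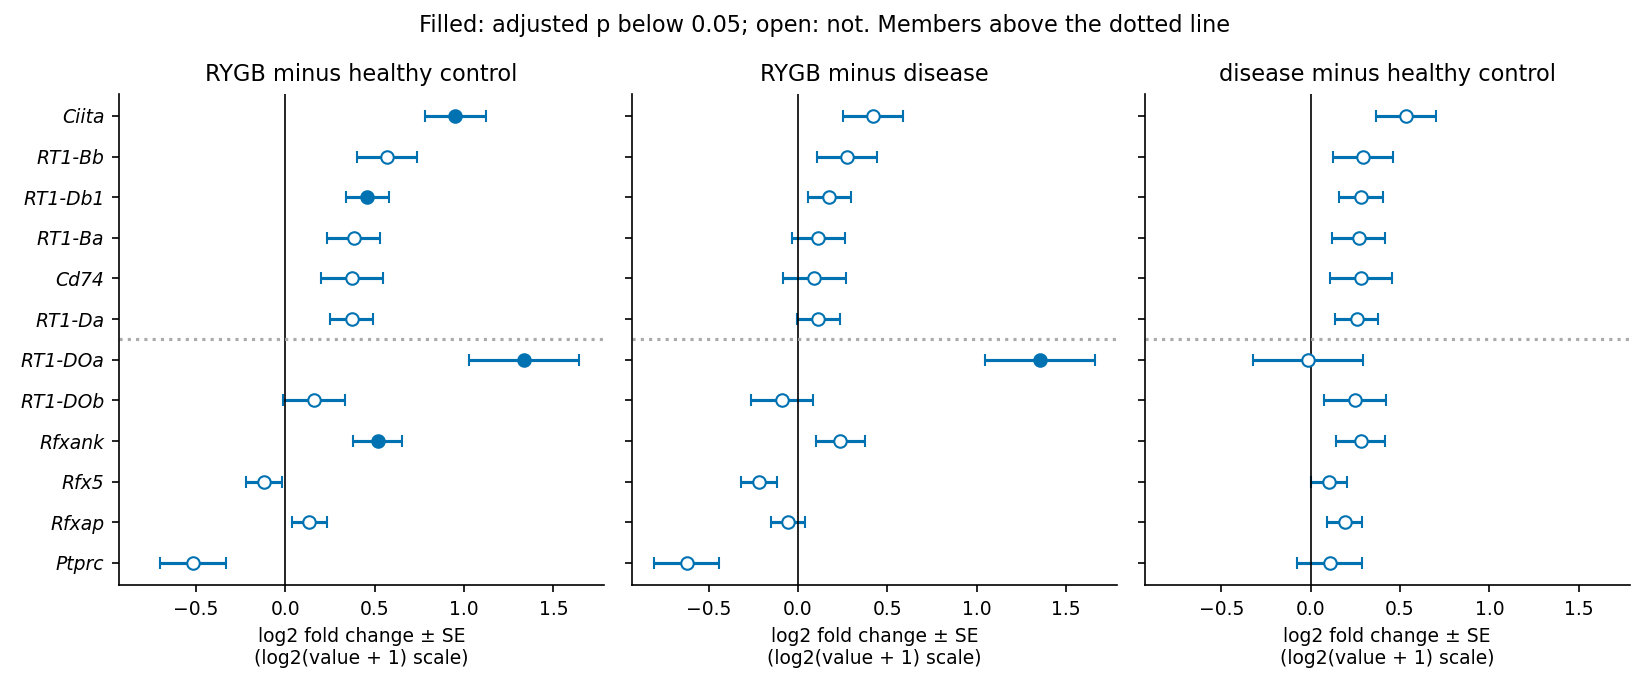
Log2 differences on the log2(value + 1) scale (x axis) with their SE for the 6 tested members (above the dotted line) and 6 related genes (below it), in RYGB minus healthy control, RYGB minus disease and disease minus healthy control; filled points passed an adjusted p of 0.05. Among members, Ciita (0.95) and RT1-Db1 (0.46) are filled in the first panel and no member in the others.

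The chain genes moved together from library to library within a group. After each group mean was removed, Cd74 and RT1-Ba had a Pearson r of 0.94 (Spearman rho 0.92), and the 10 pairs among Cd74, RT1-Ba, RT1-Bb, RT1-Da and RT1-Db1 had r from 0.65 to 0.94. Ciita followed them less closely, with r of 0.61 for RT1-Bb, 0.38 for RT1-Ba, 0.33 for RT1-Db1 and 0.19 for both Cd74 and RT1-Da. The library labelled healthy control replicate 4 shows this, with the lowest Ciita of its group (66.2) beside the highest Cd74 (19401), but that Ciita value rests on 27 reads. Ciita had 27 to 459 reads per library, against 1226 or more for Cd74 and each chain gene. Counting error at few reads lowers r, and its part here was not tested. These correlations describe 18 libraries that share their sequencing depth, scaling and tissue piece. Without the 2 libraries farthest from the median, healthy control replicate 1 and disease replicate 4, Cd74 with RT1-Ba had r = 0.91 and Ciita with Cd74 had r = -0.03.

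Genes outside the class II pathway also varied with the members. Of all tested genes, the 10 with deviations most like the members' mean were Abcd4, Ubb, LOC108351137, Slc39a5, ENSRNOG00000000694, Hadhb, Slc22a6, Mov10, Fto and Trappc1, with r from 0.87 to 0.91 over 18 libraries and 0.79 to 0.87 without the same pair of libraries. Slc22a6 encodes an organic anion transporter of the proximal tubule, and Hadhb a subunit of the mitochondrial fatty acid oxidation enzyme. Ptprc, the CD45 surface protein of leukocytes, had r = -0.50, and -0.30 without that pair.

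The share of reads outside annotated genes also moved with the members. Within groups its r was -0.71 for RT1-Bb, -0.54 for Ciita, -0.53 for RT1-Ba, -0.47 for Cd74, -0.45 for RT1-Db1 and -0.24 for RT1-Da, and it was 0.60 for Ptprc. Without the 2 libraries with the shares farthest from the median, healthy control replicate 1 and disease replicate 1, the members' r ran from -0.60 to -0.23. Healthy control replicate 1, at 43.2%, was the lowest healthy control library in Cd74, RT1-Ba, RT1-Bb and RT1-Db1, and in Slc22a6. Since this share had a median of 30.4% after RYGB, 32.8% in disease and 33.4% in healthy controls, it was added to the model as a covariate after the data had been seen. Ciita then remained higher after RYGB than in healthy controls (0.78, adjusted p = 0.0281), RT1-Db1 no longer passed (0.36, adjusted p = 0.215), and RT1-Bb dropped to 0.32 (adjusted p = 0.337). The part of the share in these differences was not tested beyond that fit.

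**Figure D3:**
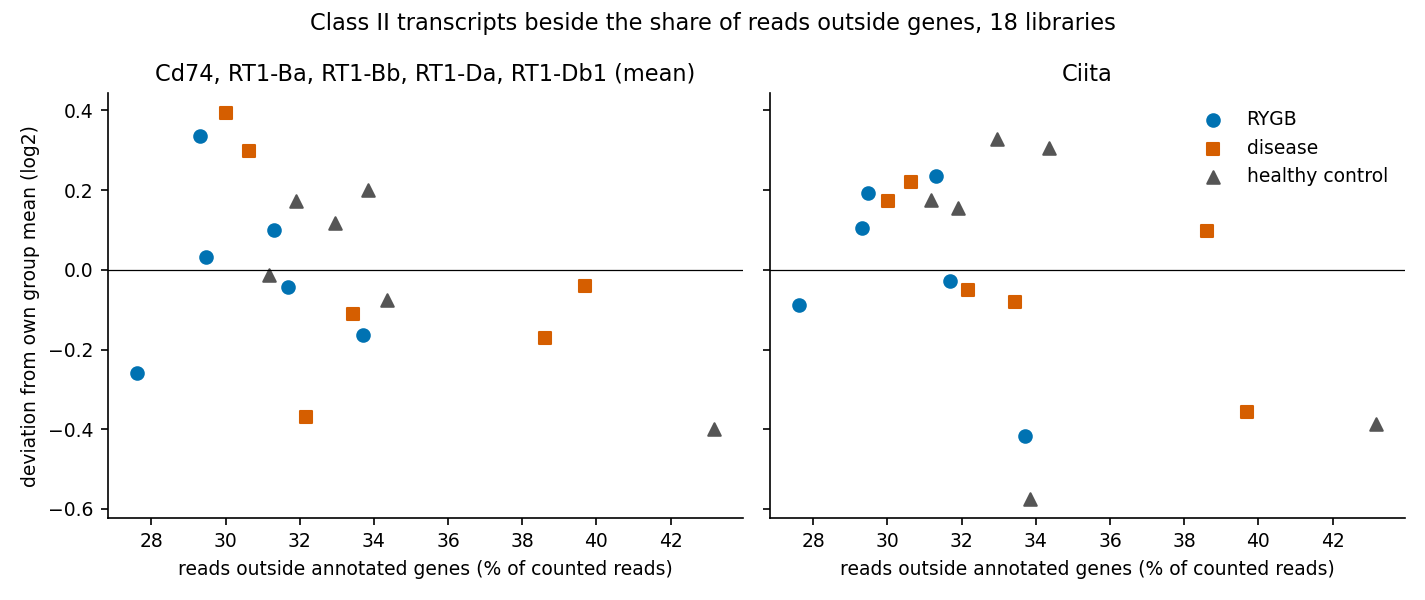
Deviation from the own group's mean (y axis, log2) against the percent of counted reads outside annotated genes (x axis) in 18 libraries, for the mean of Cd74 and the 4 chain genes (left) and for Ciita (right). The healthy control library at 43.2% lies low in both panels, and the healthy control library lowest in Ciita, near 34%, is not low in the left panel.

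Among the other class II genes, RT1-DOa, the alpha chain of the DO pair that restrains DM, rose after RYGB. Its lowest, median and highest values were 44.1, 59.7 and 82.6 normalised reads after RYGB, 11.9, 23.3 and 43.2 in disease, and 12.3, 23.4 and 35.3 in healthy controls. RT1-DOa rests on fewer reads than Ciita, at most 122 in a library after RYGB, 72 in disease and 42 in healthy controls. No RYGB library overlapped either other group (1.12% of all tested genes were higher without overlap in RYGB against disease), while disease and healthy controls overlapped. The log2 difference was 1.35 ± 0.31 against disease (limma, adjusted p = 0.0178) and 1.34 ± 0.31 against healthy controls (adjusted p = 0.0209), and disease against healthy controls was -0.02 ± 0.31 (adjusted p = 0.993). The call against healthy controls was lost without RYGB replicate 6 (adjusted p = 0.0507) or healthy control replicate 1 (0.0531), held without healthy control replicate 4 (1.17, adjusted p = 0.0191), and neither call held with the share of reads outside genes as covariate (0.0771 against disease and 0.11 against healthy controls). RT1-DOb, its beta chain partner, had 43.6 ± 7.9 after RYGB, 46.2 ± 7.2 in disease and 38.9 ± 6.9 in healthy controls (SD, n = 6 each) and passed in no comparison, so the 2 chains of DO did not show the same pattern of calls. A test of the difference between the chains was not made.

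Of the 7 genes of the complex that Ciita joins on class II promoters, Rfxank rose and the other 6, Rfx5, Rfxap, Nfya, Nfyb, Nfyc and Creb1, were called in no comparison. Rfxank, the ankyrin repeat subunit of RFX, had 495.4 ± 60.6 normalised reads after RYGB, 424.0 ± 79.4 in disease and 346.8 ± 49.9 in healthy controls (SD, n = 6 each), and RYGB did not overlap healthy controls. It was higher by 0.52 ± 0.14 (limma, adjusted p = 0.0384), a call lost without RYGB replicate 1, 2, 4, 5 or 6 or healthy control replicate 1, 2, 3, 5 or 6 (0.0539 to 0.105) and with the covariate (0.232). Rfx5, the DNA-binding subunit, was at -0.12 ± 0.10 in the same comparison and Rfxap, the remaining subunit, at 0.14 ± 0.10.

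**Figure D4:**
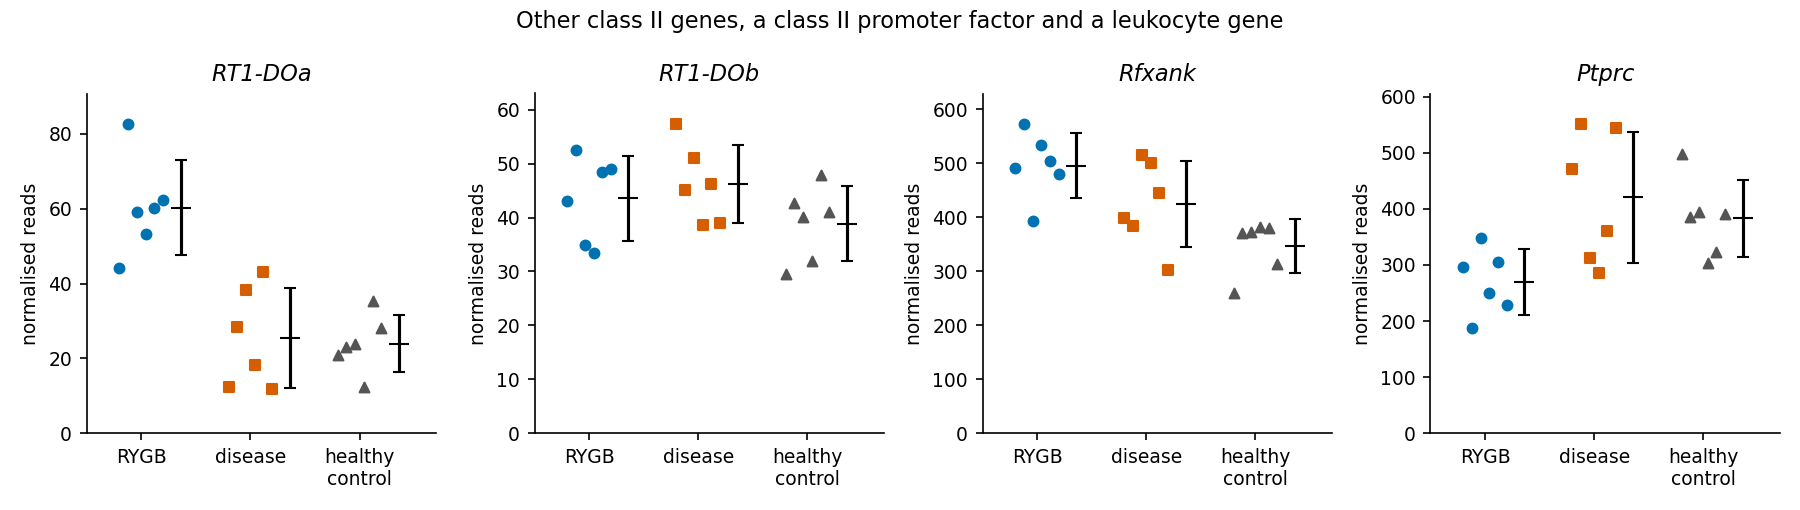
Normalised reads (y axis, linear from 0) of the DO chains RT1-DOa and RT1-DOb, the promoter factor Rfxank and the leukocyte gene Ptprc in the 6 RYGB, 6 disease and 6 healthy control libraries; bars give the mean and SD. The RT1-DOa panel has every RYGB library above both other groups, the RT1-DOb panel shows overlap throughout, and Ptprc is lowest in RYGB kidneys without a gap.

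The interferon gamma pathway, which induces Ciita, had 13 tested genes. Cxcl11, an interferon-induced chemokine, was the one gene called: it averaged 334.1 ± 59.4 after RYGB, 353.2 ± 71.8 in disease and 224.5 ± 32.9 in healthy controls (SD, n = 6 each), and rose in RYGB against healthy controls (0.56, limma adjusted p = 0.0353) and in disease against healthy controls (0.64, adjusted p = 0.0254). The first call was lost without RYGB replicate 1, 2, 4 or 5 or healthy control replicate 1, 2, 3, 5 or 6 (0.0606 to 0.0845) and with the covariate (0.173), and the second without disease replicate 3 or 4 or healthy control replicate 2, 3, 5 or 6 (0.0507 to 0.0754). Irf1, a transcription factor through which interferon gamma reaches Ciita, is given for that role and was chosen with its values known. It averaged 508.1 ± 113.8 after RYGB, 417.9 ± 69.0 in disease and 393.5 ± 86.5 in healthy controls (SD, n = 6 each). It passed in no comparison. Ifng itself had at most 2 reads in any library.

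Of the 9 tested genes of the endosomal enzymes that process antigen and the invariant chain, Ctsd and Ctsz, both lysosomal cathepsins, rose in disease against healthy controls (0.50, adjusted p = 0.0449, and 0.57, adjusted p = 0.0119) and fell in RYGB against disease (-0.46, adjusted p = 0.0438, and -0.51, adjusted p = 0.0183; limma). The Ctsd calls were lost under 21 of 29 alternatives in disease against healthy controls (0.0513 to 0.175, and 0.0742 without healthy control replicate 4) and under 16 of 28 in RYGB against disease (0.0515 to 0.109), and the Ctsz call in RYGB against disease without RYGB replicate 1 (0.0504) or disease replicate 2 (0.0535) and with the covariate (0.0607). These genes did not follow the order of the class II members, and 0 of 9 were called in RYGB against healthy controls. Ctss, the cathepsin that finishes invariant chain removal, was named for that role after its values were seen. It averaged 944.4 ± 204.9 after RYGB, 843.0 ± 108.9 in disease and 689.7 ± 96.8 in healthy controls (SD, n = 6 each), and RYGB against healthy controls missed the threshold (0.44 ± 0.13, adjusted p = 0.0631). In that comparison 4 of the 9 enzymes had a positive difference (median -0.038). Ctsb (-0.72), Ctsl (-0.58) and Ctsh (-0.60), also named after their values were seen, were lower there without passing. For RYGB against disease, 2 of 9 were positive (median -0.44).

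Class I presentation, the parallel route to CD8 T cells, had 13 tested genes, of which the class I heavy chain RT1-CE5 rose in RYGB against healthy controls (0.43 ± 0.12, limma adjusted p = 0.0445). In that comparison 11 of the 13 had a positive difference (median 0.22), where 48.4% of all tested genes did. For RYGB against disease it was also 11 of 13 (median 0.19), beside 49.9%. Positive differences were thus not particular to the class II members. RT1-CE5 belongs to a family of near-identical class I genes, so its reads may be split or lost, and its call was lost under 15 of 28 alternatives (0.0536 to 0.228), among them each of 10 single RYGB or healthy control libraries left out. Of 5 tested co-stimulatory molecules and class II ligands, Cd4, the co-receptor that binds class II, fell in RYGB against disease (-0.46 ± 0.13, adjusted p = 0.0494), with 396.1 ± 32.6 after RYGB, 544.7 ± 54.9 in disease and 463.8 ± 92.1 in healthy controls (SD, n = 6 each). That call was lost under 20 of 28 alternatives (0.0504 to 0.149), among them the leaving out of any RYGB or disease library. Of the genes listed for turnover of class II at the surface, March8, a ubiquitin ligase, and Il10ra, a chain of the receptor for interleukin 10, were tested and called in no comparison.

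General leukocyte genes did not share the order of the class II members in their group means. Ptprc had 187.6 to 348.6 normalised reads after RYGB (mean 269.4 ± 58.4), 285.3 to 550.7 in disease (420.7 ± 117.1) and 304.2 to 498.5 in healthy controls (382.9 ± 68.4; SD, n = 6 each). Its log2 difference was -0.62 ± 0.18 for RYGB against disease (limma, adjusted p = 0.0604) and -0.52 ± 0.18 for RYGB against healthy controls (adjusted p = 0.0959), so neither passed. The first did without RYGB replicate 3 or disease replicate 3 or 4 (0.0313 to 0.0388) and with DESeq2 (0.0190) or quantile scaling (0.0444), and the second without RYGB replicate 3 (0.0491) and with the compared groups alone (0.0496). In RYGB against disease, 0 of 6 general leukocyte genes were called, beside 3.95% of all tested genes. Of these genes 0 of 6 had a positive difference, where 49.9% of all tested genes and all 6 tested class II members did. The members vary together, and Cd74 and RT1-Ba turned negative with the covariate, so these are not separate observations. The summed level of the 6 general leukocyte genes ran from 1899 to 2121 after RYGB, 2112 to 3019 in disease and 1933 to 2589 in healthy controls. None of the 6 was at 0 throughout a group.

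Set against Ptprc in the same library, Ciita had a median ratio of 0.743 after RYGB (0.414 to 1.01), 0.332 in disease (0.238 to 0.569) and 0.283 in healthy controls (0.152 to 0.380). The RYGB libraries all lay above the healthy control libraries in this ratio and overlapped disease. The ratio of Cd74 to Ptprc had a median of 63.9 after RYGB (48.9 to 99.9), 35.1 in disease (26.2 to 86.3) and 39.9 in healthy controls (19.8 to 63.8), with overlap between all groups. Both ratios carry the opposite moves of their parts and the counting error of Ciita, and they are given as descriptions. They also rest on Ptprc alone. In RYGB against healthy controls, 3 of the 6 general leukocyte genes had a positive difference, and Ptprc had the lowest (-0.52). Ratios to the other general leukocyte genes were not taken.

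**Figure D5:**
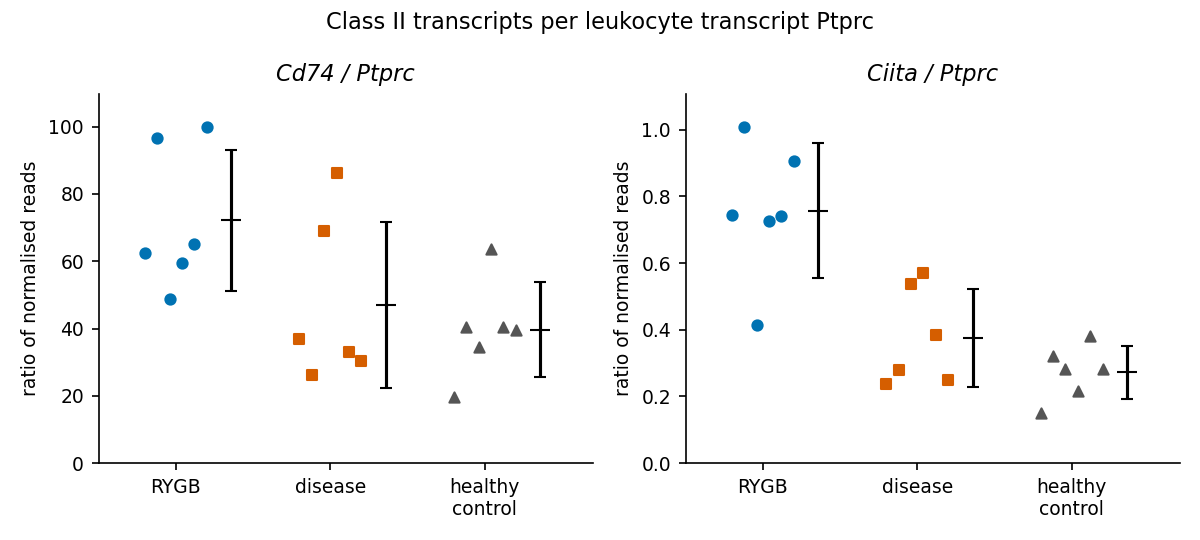
Ratio of normalised reads (y axis, linear from 0) of Cd74 to Ptprc (left) and of Ciita to Ptprc (right) in each of the 6 RYGB, 6 disease and 6 healthy control libraries; bars give the mean and SD. In the right panel every RYGB library (0.414 and above) lies above every healthy control library (0.380 and below), and in the left panel the groups overlap.

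Among called markers of the cells that carry class II, the direction depended on the gene and the comparison. Of 5 tested dendritic cell markers, Clec10a, a lectin also found on macrophages, fell in RYGB against disease (-1.66, limma adjusted p = 0.000425) and rose in disease against healthy controls (1.34, adjusted p = 0.00240), and Itgae, the CD103 integrin, fell in RYGB against disease (-0.64, adjusted p = 0.00501). The summed dendritic markers, of which 9 were in the table and none was at 0 throughout a group, ran from 4147 to 7253 after RYGB, 4297 to 8155 in disease and 4898 to 8338 in healthy controls. Cd24 alone supplied 90.6% to 92.6% of these sums, and without it they ran from 323.5 to 460.1 after RYGB, 501.7 to 692.8 in disease and 431.7 to 531.8 in healthy controls. Of 15 tested macrophage and monocyte markers, the lysozyme gene Lyz2 rose against healthy controls both after RYGB (0.56, adjusted p = 0.00699) and in disease (0.60, adjusted p = 0.00440). Mrc1, the mannose receptor CD206, fell after RYGB against disease (-1.75, adjusted p = 0.000334) and against healthy controls (-1.10, adjusted p = 0.00910). The summed macrophage markers ran from 10056 to 12918 after RYGB, 10647 to 13648 in disease and 7884 to 10087 in healthy controls, and Lyz2 supplied 58.2% of them after RYGB, 55.9% in disease and 48.3% in healthy controls. Without Lyz2 they ran from 4337 to 5091 after RYGB, 4837 to 6011 in disease and 4156 to 5497 in healthy controls, and overlapped throughout. In RYGB against healthy controls, 0 of 5 tested dendritic markers had a positive difference (median -0.29), and 10 of 15 macrophage and monocyte markers did (median 0.028). For RYGB against disease, 1 of 5 (median -0.22) and 4 of 15 (median -0.11) were positive. Of all tested genes, 48.4% were positive in the first comparison and 49.9% in the second.

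B cells, which also carry class II, left few reads: their 8 markers in the table summed to 11.02 to 30.02 normalised reads after RYGB, 18.7 to 66.6 in disease and 4.9 to 32.9 in healthy controls. T cell markers summed to 103.6 to 137.7 after RYGB, 134.1 to 269.5 in disease and 93.2 to 165.4 in healthy controls, and 0 of 6 tested were called in any comparison. Among structural markers, the endothelial cadherin Cdh5 fell in RYGB against healthy controls (-0.54, limma adjusted p = 0.0356), a call lost under 10 of 28 alternatives (0.0594 to 0.216). Umod, the marker of the thick ascending limb, rose in RYGB against disease (1.13, adjusted p = 0.0294) and fell in disease against healthy controls (-1.36, adjusted p = 0.0129); the first call was lost under 9 of 28 alternatives (0.0569 to 0.130) and the second with quantile scaling (0.161). The 5 proximal tubule markers summed to 120681 to 204831 after RYGB, 75956 to 161432 in disease and 73784 to 150051 in healthy controls, and 0 were called in any comparison. Of 4 tested markers listed for the medulla, 0 were called. Aqp1, the water channel of the thin limb and also of the proximal tubule, averaged 44556 ± 5547 after RYGB, 28776 ± 10639 in disease and 29076 ± 7228 in healthy controls (SD, n = 6 each), with log2 differences of 0.70 ± 0.22 for RYGB against disease (limma, adjusted p = 0.0772) and 0.65 ± 0.22 for RYGB against healthy controls (0.0839). It made up 97.2% to 98.5% of the summed medulla markers, which ran from 37021 to 51771 after RYGB, 19570 to 44567 in disease and 17519 to 37301 in healthy controls. Without Aqp1 the sums overlapped, at 528.0 to 858.6 after RYGB, 521.1 to 1005 in disease and 554.1 to 817.0 in healthy controls. Akr1b1, aldose reductase, averaged 533.1 ± 83.9 after RYGB, 633.4 ± 119.2 in disease and 575.4 ± 86.8 in healthy controls (SD, n = 6 each). The part of cell makeup in the class II differences was not tested.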

How the data were processed

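Poly(A) libraries of rat kidney cortex were made with a stranded mRNA kit, per the labels' protocols. FastQC 0.11.2, MultiQC 0.9, HTSeq 0.6.1p1, DESeq2 and the build Rnor 5.0 are named in the submitters' processing notes, and no source used here gives the aligner or annotation. The deposited signal values are read counts per gene divided by a size factor per library (0.401 to 2.02). Multiplied back, 99.9837% to 99.9891% of values were whole reads within 0.01. Of 18423 rows, 3 name no gene and stayed out of sums and tests; they held reads outside genes (27.6% to 43.2% of counted reads), reads not uniquely placed (13.5% to 18.1%) and ambiguous reads (0.0695% to 0.114%). Symbols of the RT1 genes are spelled with a dot in the table and with a hyphen here.

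Genes with at least 10 normalised reads in at least 6 libraries (13988) were fitted with limma 3.58.1 (trend) in R 4.3.3 on log2(value + 1), which understates changes of low genes, with 3 group means over 18 libraries (15 residual degrees of freedom) and Benjamini-Hochberg adjustment per comparison at 0.05. Alternatives were edgeR 4.0.16 (TMM, quasi-likelihood) and DESeq2 1.42.0 on the recovered reads, quantile scaling, pseudocounts of 0.5 and 5, no filter, a minimum of 50, the compared groups alone, a replicate block and leaving out each library. A block within disease and healthy controls and a covariate for reads outside genes were added after the data had been seen. No library pair was a duplicate: same-group pairs had a chi-square per degree of freedom of at least 21.4. Same-numbered disease and healthy control libraries deviated together (r from 0.131 to 0.325) and met the rule used for pairing (every pair over 0.1). RYGB libraries did not meet it with either group (-0.557 to 0.309). Of the 18 same-numbered pairs, 3 correlated best with their own number. The rule therefore does not establish that the numbers pair disease with healthy controls, and the labels give no pairing. The fitting step recovered known changes on simulated data, with its pass mark set at a larger change than any tested member showed. Recovery of changes as small as the members' is not given here. No batch is given in the labels.

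The members and gene lists were chosen with earlier results of these data known. From each of 16 lists, up to 3 called genes per comparison are named, or the 2 highest where none was called, of which a few are given as sums; exceptions are stated beside their values. Promoter sequences are from RefSeq for GRCr8, not the build of the counts.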

Additional observations from a re-analysis of the deposited data

Results flagged for a closer look

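In 93 groups of 6 libraries, from 31 genes, a library was looked for whose gap to the nearest other passed Dixon's critical value for its group's range, which chance gives in about 1 in 20 groups, and 6 were found. Among the members, RT1-Bb had 2031 normalised reads in healthy control replicate 1, against 2990 to 3284 in the other 5. The same library had 13686 for the proximal tubule transporter Slc22a6, against 22965 to 25342 in the others, and the largest share of reads outside genes, 43.2%. The library labelled healthy control replicate 4 had 98.1 for Clec10a, against 64.2 to 69.8 in the others, and 2.45 for the B cell gene Cd22, against 6.59 to 8.41, a value of few reads. Disease replicate 2 had 652.6 for Cd4, against 499.0 to 544.2, and disease replicate 4 had 487.0 for Cxcl11, against 287.1 to 361.5.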

How the results depend on the processing

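The count of members called in RYGB against healthy controls was 2, and it was 4 with DESeq2, with quantile scaling and with the compared groups alone, 1 with the replicate block and 1 with the share of reads outside genes as covariate; leaving out a library gave 1 to 3. It stayed 0 under every alternative in the other comparisons, including the replicate block within disease and healthy controls alone, which left 0 members and 252 genes called. With the overall replicate block RT1-Db1 had an adjusted p of 0.0651. Over all genes, RYGB against healthy controls had 621 called, and 1602 with DESeq2, 1442 with the compared groups alone, 134 with the covariate and 209 to 1506 without a library, the highest without healthy control replicate 4. RYGB against disease had 552, and 1098 with DESeq2, 165 with the covariate and 261 to 819 without a library. Disease against healthy controls had 225, and 410 with DESeq2, 143 at a minimum of 50 and 126 to 312 without a library. Member signs turned in RYGB against disease: Cd74 was at -0.052 with the covariate and at -0.014 (without disease replicate 5) to 0.19 when a library was left out, and RT1-Ba was at -0.024 with the covariate; the cause was not tested. RT1-Bb passed in RYGB against healthy controls under 9 alternatives and RT1-Da under 4. No scaling moved the median of all genes by over 0.1. RT1-DOa was not tested at a minimum of 50. Low counts limit Ciita and RT1-DOa and leave the DM pair without a test.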
